A study of Dendroctonus valens with 12 samples.

Results

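The winter-high unigenes of *Dendroctonus valens*, the red turpentine beetle, are 150 of 58956 assembled transcripts whose lowest value in any January insect stood furthest above the highest value in any May insect. They were chosen by these measured values alone. For each unigene the lowest of the 6 January FPKM plus 1 was divided by the highest of the 6 May FPKM plus 1, and the 150 largest ratios were taken. FPKM count fragments relative to the length of the transcript and to the mapped fragments of the library, so they can be compared between transcripts of different length. Because the January and May values selected the members, their difference between the months is a description and carries no test.

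Each of the 12 libraries was made from poly(A) RNA of a single whole wild insect. The 4 groups hold 3 insects each. They are mature larvae and adults collected in January, labelled cold, and mature larvae and adults collected in May, labelled normal. The insects came from 1 field collection in each month, so temperature, date, feeding and age cannot be told apart, and neither labels nor methods state their sex. RNA of a whole insect sums all its tissues, so more cells of a type and more RNA per cell cannot be told apart either.

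*D. valens* is a bark beetle that passes the winter as a larva or an adult under the bark of pine. Insects that overwinter commonly lower their feeding, growth and metabolic rate, and many change membranes, protective solutes, stress proteins and the control of transcription and translation. A transcript that is present in winter in larvae as well as in adults is shared between life stages that differ in tissues and hormones.

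Libraries differed in breadth before any member was considered. From 8291 to 16681 unigenes reached 1 FPKM in the May larvae, 15028 to 25771 in the January larvae, 16595 to 21622 in the May adults and 24717 to 28292 in the January adults. The median log2 ratio of January to May, on the scale of FPKM plus 1, was 1.26 over 11635 unigenes in larvae and 1.02 over 23423 in adults. The members had medians of 3.44 and 2.60, which the rule by itself places high. After median-of-ratios scaling, which evens out the 9529 unigenes above 0 in all 12 libraries, the medians of all unigenes were 0.31 and 0.93 and those of the members were 2.68 and 2.47. Mitochondrial transcripts also differed, since those of cytochrome oxidase subunit I and cytochrome b were abundant in January and listed at or near 0 in 5 of the May insects, as is given with the member that shares this pattern.

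A gap between the months was not rare in these data. All 6 January values lay above all 6 May values in 1386 of 58956 unigenes (2.35%), and all 6 May values lay above all 6 January values in 306. The balance depended on scaling, with 1096 against 643 under median-of-ratios scaling, 1115 against 630 when that scaling used *D. ponderosae* matches, 1032 against 286 with an equal FPKM sum and 766 against 437 when that sum left aside the 20 most abundant unigenes. The members are the upper end of the first set, so all 150 are in it by construction. Their ratios ran from 102 to 2.16 with a median of 2.77, and 30 of them exceeded 4 and 3 exceeded 10. At the boundary the ratios changed little. TRINITY_DN27671_c0_g1, ranked 150, had a lowest January value of 20.5 FPKM and a highest May value of 8.92 FPKM, while TRINITY_DN24641_c2_g1, the next in order, had 62.3 and 28.2 FPKM and was left out. TRINITY_DN25330_c1_g1, the member before the last, had 21.2 and 9.25 FPKM, and TRINITY_DN25855_c0_g1, the other unigene just outside, had 14.8 and 6.31 FPKM. The lower part of the set is therefore continuous with the unigenes below it.

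**Figure D1:**
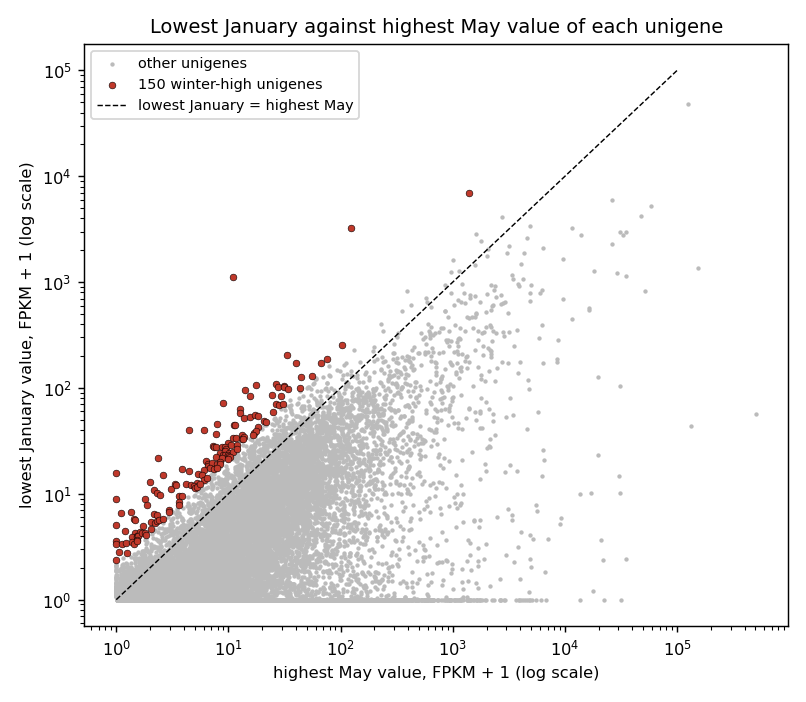
Lowest January value against highest May value of each unigene, both as FPKM plus 1 on log axes; red points are the 150 winter-high unigenes, grey points the other unigenes above 0 in either value, and the dashed line marks equality. The members lie along the upper edge of the cloud, and 3 of them stand apart at lowest January values over 1000 FPKM.

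A primer pair or an assembled sequence was at hand for 2 members. They are shown because they identify the unigene with the largest ratio and an abundant unigene without a named match. The first is a primer pair that was designed for quantitative PCR of TRINITY_DN27537_c0_g1, with the last 5 bases at the 3′ end in capitals.
DN27537 forward primer: ttgaagactcaccgaACGGG
DN27537 reverse primer: tgctggcaacccaaaTAGCT
The second comes from the assembled transcript of TRINITY_DN24688_c4_g3, which is 3981 bases long. Its longest reading frame from an ATG to a stop ran from base 862 to base 1209 of the forward strand and had 115 codons before the stop. The first 300 bases of the frame follow, with the ATG in capitals. Whether it is translated was not tested.
DN24688 reading frame: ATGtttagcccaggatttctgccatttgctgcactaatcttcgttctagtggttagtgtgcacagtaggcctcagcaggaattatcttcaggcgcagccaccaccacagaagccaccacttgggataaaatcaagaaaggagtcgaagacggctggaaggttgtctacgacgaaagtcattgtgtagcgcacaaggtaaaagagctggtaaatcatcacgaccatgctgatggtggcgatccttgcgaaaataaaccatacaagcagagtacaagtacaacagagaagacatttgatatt

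TRINITY_DN27537_c0_g1, the unigene of the primer pair, had the largest ratio of all, 102, and no match in the annotation rows used here. It stood at 3188, 3613 and 2139 FPKM in January larvae 1 to 3 and at 1108, 3388 and 1133 FPKM in January adults 1 to 3. In May it stood at 5.17, 4.31 and 8.20 FPKM in the larvae and at 5.35, 9.90 and 3.06 FPKM in the adults. Every January insect was therefore above 1000 FPKM and every May insect below 10 FPKM. The means were 2980 ± 759 against 5.89 ± 2.04 FPKM in larvae and 1876 ± 1309 against 6.10 ± 3.48 FPKM in adults (SD, n = 3 insects each), which is 506-fold and 307-fold.

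TRINITY_DN21877_c2_g2, second in rank, was the most abundant member and also lacks a match text. It stood at 31496, 38372 and 8520 FPKM in the January larvae and at 3214, 3627 and 5371 FPKM in the January adults. In May it stood at 44.3, 31.1 and 57.4 FPKM in the larvae and at 107, 124 and 117 FPKM in the adults. The larvae were above the adults in January and below them in May, without overlap in either month. TRINITY_DN21877_c2_g1, which the assembler placed in the same component and which ranked 14, showed a lower level with a like order of groups, at 14.1 to 61.5 FPKM in the January larvae, 22.2 to 43.2 in the January adults, 0.69 to 0.86 in the May larvae and 1.21 to 1.62 in the May adults. In January its larvae and adults overlapped. Reads that fit such a pair can be divided between them by the counting step, so the level of each member of a pair is uncertain.

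TRINITY_DN20328_c0_g1, ranked 21, was the third very abundant member. It stood at 12961, 11331 and 13110 FPKM in the January larvae and at 6994, 8979 and 13291 FPKM in the January adults. In May it was at 1406 FPKM in larva 1, at 1.12 FPKM in adult 3 and listed at 0 in the other 4 insects. This pattern of a single high May insect recurred in 2 unigenes that match mitochondrial genes. Cytochrome oxidase subunit I, TRINITY_DN20652_c0_g1, was at 2214 to 9855 FPKM in January, at 3173 FPKM in May larva 1 and at 0 to 0.49 FPKM in the other May insects. Cytochrome b, TRINITY_DN20349_c0_g2, was at 4141 to 10034 FPKM in January, at 2762 FPKM in May larva 1 and at 0 to 6.94 FPKM in the others. Over the 12 libraries the log2 values of TRINITY_DN20328_c0_g1 followed those of both at r = 0.991, a description over insects in separate clusters. TRINITY_DN20328_c0_g1 itself has no match in the annotation rows used here. Why these unigenes were listed at or near 0 in most May insects was not tested, and a listed 0 is not read here as absence of the transcript.

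These 3 unigenes carried most of the FPKM of the set in January, 59.6 to 84.4% of it, and in May larva 1, while in the other May insects they carried 5.02 to 10.2%. Together the 150 members took 5.21, 5.84 and 2.91% of the summed FPKM of the January larvae, 1.93, 2.63 and 2.58% of the January adults, 0.158, 0.0663 and 0.0371% of the May larvae, and 0.141, 0.176 and 0.149% of the May adults. Without the 3 the shares were 0.745 to 0.988% in the 6 January insects and 0.0335 to 0.159% in the 6 May insects. The January larvae and adults then overlapped, whereas with the 3 members included the larvae were above the adults.

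**Figure D2:**
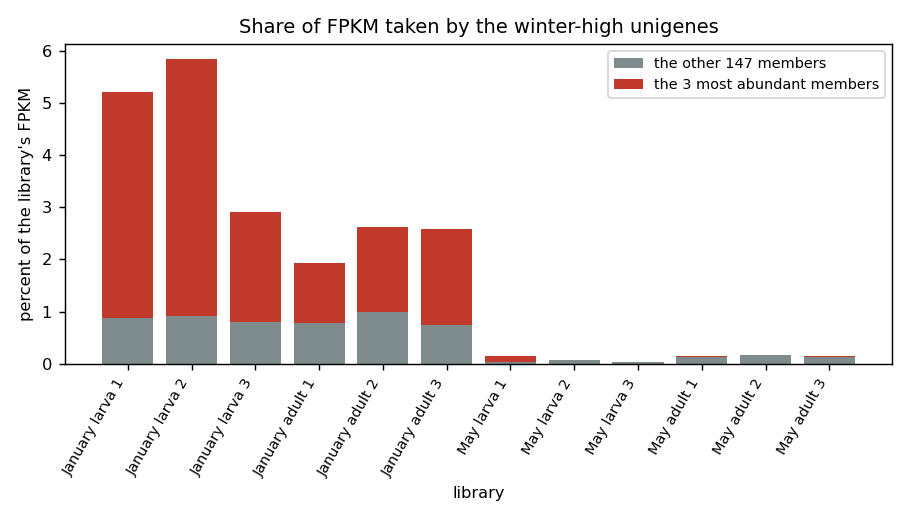
Percent of the summed FPKM of each library that the winter-high unigenes take; red is the part of the 3 most abundant members and grey that of the other 147. The January bars reach 1.93 to 5.84% and the May bars stay at or below 0.176%.

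The other 8 of the first 10 unigenes in rank were at moderate January levels, and 2 of the first 10 have a named match. TRINITY_DN12919_c0_g1 was at 16.2, 14.6 and 33.6 FPKM in January larvae, 29.0, 64.6 and 15.4 FPKM in January adults and listed at 0 in all 6 May insects. TRINITY_DN16084_c0_g1 was at 45.4, 15.7 and 17.3 FPKM, at 8.01, 29.7 and 10.4 FPKM, and listed at 0 in all 6 as well. TRINITY_DN21451_c0_g3 was at 40.8, 13.2 and 14.9 FPKM, at 12.1, 21.5 and 28.5 FPKM, and at 1 FPKM in May adult 3 with 0 in the other 5. None of these 3 has a match in the rows used here, and in each the January larvae and adults overlapped.

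The next 3 unnamed members of the first 10 were above 0 in every May insect. TRINITY_DN23985_c0_g5 was at 220, 317 and 367 FPKM in January larvae and 94.8, 217 and 226 FPKM in January adults, against 0.82, 3.05 and 1.69 FPKM in May larvae and 8.66, 11.7 and 12.9 FPKM in May adults. TRINITY_DN26851_c0_g1 was at 57.2, 110 and 88.0 FPKM and at 39.4, 52.4 and 143 FPKM in January, against 1.63, 0.97 and 0.81 FPKM and 3.48, 3.02 and 2.02 FPKM in May. TRINITY_DN18798_c0_g1 was at 68.0, 93.8 and 71.0 FPKM and at 39.0, 64.3 and 61.3 FPKM in January, against 0.70, 1.62 and 1 FPKM and 5, 3.32 and 4.86 FPKM in May. In all 3 the May adults were above the May larvae, and in TRINITY_DN18798_c0_g1 the January larvae were above the January adults.

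The highest January means after the 3 leading members belong to unigenes without a named match. TRINITY_DN26664_c1_g1 was at 479, 544 and 297 FPKM in January larvae and 205, 317 and 309 FPKM in January adults, against 6.78, 4.68 and 4.56 FPKM in May larvae and 28.0, 32.3 and 25.7 FPKM in May adults. TRINITY_DN27655_c0_g1 was at 330, 557 and 351 FPKM and at 188, 336 and 360 FPKM in January, against 4.17, 6.03 and 3.72 FPKM and 74.6, 63.5 and 69.4 FPKM in May. In these unigenes the May adults were above the May larvae without overlap, with FPKM as deposited. The size of that gap depends on scaling. TRINITY_DN24688_c4_g3, the unigene of the reading frame shown above, was the opposite case. It was at 280, 282 and 428 FPKM in January larvae and 256, 296 and 575 FPKM in January adults, against 62.2, 89.9 and 102 FPKM in May larvae and 32.1, 87.2 and 34.4 FPKM in May adults, and its stages overlapped in both months. With either median-of-ratios scaling its January values no longer all lay above its May values.

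Annotation reached a minority of the set. Parts of 2 annotation tables of the study, 712 rows of unigenes that it called in both stages and 1999 rows of protein matches, hold 62 of the 150 members, and 88 have no row. Of the 62, 28 match the mountain pine beetle *D. ponderosae*, 3 match another species and 31 carry no match text. None of the members with a match text matches a nematode, and the others could not be checked in this way. The study states that some sequences were nematode contamination and were deleted. Of the 1999 rows of protein matches used here, 30 name a nematode. A named match exists for 21 members. The first table was chosen by the study on these same libraries, so a member with a row there is not independent evidence of a change.

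Several of the named members act in the nucleus. TRINITY_DN23225_c1_g1, a homolog of VPS72, which in yeast and human helps to exchange histone H2A for its variant H2A.Z, was at 148.9, 149.6 and 150.7 FPKM in January larvae and 95.5, 83.8 and 96.8 FPKM in January adults. In May it was at 6.18, 3.27 and 2.13 FPKM in larvae and 20.3, 23.7 and 28.2 FPKM in adults. Larvae were above adults in January and below them in May. TRINITY_DN22495_c1_g2, a bromodomain protein with matches to yeast GCN5 and to BAZ1A, which bind acetylated histones, was at 29.0, 15.2 and 15.8 FPKM and at 33.5, 36.4 and 13.2 FPKM in January, against 0.34, 1.16 and 0.84 FPKM and 5.50, 4 and 4.66 FPKM in May. Its stages overlapped in January only.

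The DNA-binding members were 4. TRINITY_DN19486_c2_g1 matches CREBL2, a basic leucine zipper protein, and was at 245, 222 and 235 FPKM in January larvae, 172, 217 and 185.3 FPKM in January adults, 10.2, 10.3 and 9.03 FPKM in May larvae and 24.5, 39.3 and 17.6 FPKM in May adults. Its January values were among the most even of the set, the highest being 1.43 times the lowest. TRINITY_DN24763_c0_g4 matches THAP4, with a zinc-dependent DNA-binding domain, and was at 18.5, 18.1 and 41.3 FPKM and at 42.0, 33.7 and 28.1 FPKM in January, against 0.28, 0.51 and 0.67 FPKM and 3.03, 5.62 and 5.13 FPKM in May. The stages overlapped in January in this unigene and not in May.

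The other 2 DNA-binding members were lower. TRINITY_DN26414_c0_g1, whose match is a zinc finger protein of the planthopper *Nilaparvata lugens*, was at 27.7, 4.33 and 24.5 FPKM in January larvae and 9.84, 23.4 and 16.7 FPKM in January adults, against 0.08, 0.05 and 0.11 FPKM in May larvae and 1.09, 0.49 and 1.21 FPKM in May adults. TRINITY_DN21188_c2_g3 matches longitudinals lacking (lola), a BTB zinc finger protein that guides axon growth in *Drosophila*, and was at 14.01, 5.79 and 13.1 FPKM and at 12.7, 10.8 and 8.50 FPKM in January, against 0.83, 1.54 and 0.76 FPKM and 1.96, 1.46 and 1.23 FPKM in May. In January the stages overlapped in both unigenes. TRINITY_DN23876_c1_g1 matches an interferon regulatory factor 2-binding protein, a family of transcriptional co-regulators in mammals. It was at 132, 110 and 111 FPKM and at 102, 191 and 182 FPKM in January, against 7.52, 9.33 and 5.17 FPKM and 18.7, 23.4 and 26.6 FPKM in May.

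Nuclear transport and RNA were represented by 4 named members. TRINITY_DN17355_c0_g1 matches Ran-binding protein 3, a cofactor of nuclear export in human cells, and was at 50.8, 43.6 and 50 FPKM in January larvae, 106, 80.8 and 46.9 FPKM in January adults, 4.92, 9.14 and 10.1 FPKM in May larvae and 4.10, 8.82 and 7.15 FPKM in May adults. TRINITY_DN21168_c5_g8 matches RanBP2, a nuclear pore protein that is also a SUMO ligase, and was at 118, 50.7 and 64.5 FPKM and at 157, 146 and 51.4 FPKM in January, against 4.68, 8.12 and 9.71 FPKM and 11.5, 12.7 and 11.8 FPKM in May. In each of these unigenes the third January adult was lower than the other 2. TRINITY_DN23991_c0_g1 matches TRMT1, which methylates a guanosine of transfer RNA, and was at 54.7, 16.2 and 24.6 FPKM and at 28.6, 22.6 and 25.2 FPKM in January, against 2.32, 4.80 and 3.05 FPKM and 4.02, 6.39 and 5.05 FPKM in May. TRINITY_DN20245_c0_g1 matches GPATCH2, a G-patch protein, and was at 90.9, 32.4 and 57.9 FPKM and at 50.4, 46.6 and 42.5 FPKM in January, against 6.21, 4.91 and 4.02 FPKM and 8.73, 10.1 and 9.09 FPKM in May.

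Enzymes that act on nucleotides, proteins and amino acids formed a further group. TRINITY_DN22937_c0_g1 matches pseudouridine-5'-phosphatase, which removes the phosphate of pseudouridine monophosphate, and had the fourth largest ratio. It was at 44.9, 33.1 and 46.0 FPKM in January larvae and 21.6, 91.7 and 21.0 FPKM in January adults, against 0.43, 0.39 and 0 FPKM in May larvae and 1.25, 1.34 and 0.55 FPKM in May adults. January adult 2 stood more than 4 times above the other 2 January adults. TRINITY_DN23062_c0_g7 matches dual specificity phosphatase 14, a phosphatase of the family that acts on MAP kinases in mammals, and was at 97.0, 122 and 130 FPKM and at 77.9, 71.1 and 74.2 FPKM in January, against 2.86, 2.01 and 2.01 FPKM and 0.22, 7.97 and 3.58 FPKM in May. The January larvae were above the January adults in this unigene, and also in TRINITY_DN23062_c0_g4 of the same component, at 39.0 to 53.6 FPKM against 24.3 to 29.2 FPKM.

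TRINITY_DN21426_c0_g1 matches cystathionine beta-synthase, the enzyme that joins homocysteine and serine, and was at 30.98, 30.7 and 44.6 FPKM in January larvae and 26.6, 165 and 215 FPKM in January adults. In May it was at 0.16, 0.45 and 0 FPKM in larvae and 1.23, 6.74 and 2.41 FPKM in adults. Adult 1 stood with the larvae in January, far below the other 2 adults. TRINITY_DN24735_c1_g2 matches Ufm1-specific protease 2, which frees the ubiquitin-like UFM1, and was at 195, 183 and 103 FPKM and at 120, 156 and 128 FPKM in January, against 11.6, 9.20 and 17.9 FPKM and 19.9, 30.4 and 14.7 FPKM in May. TRINITY_DN21294_c0_g1 matches PARP16, an ADP-ribosyltransferase of the endoplasmic reticulum that acts in the unfolded protein response of human cells. It was at 12.9, 11.2 and 41.1 FPKM and at 25.1, 23.2 and 12.3 FPKM in January, against 0.08, 0 and 0 FPKM and 1.82, 0.77 and 2.38 FPKM in May. The January stages overlapped in both unigenes.

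The oxidoreductase list held 3 members, 2 of them prolyl 3-hydroxylases, which in vertebrates modify collagen. TRINITY_DN22520_c0_g1 was at 133, 283 and 113 FPKM in January larvae and 41.7, 136 and 84.8 FPKM in January adults, against 4.93, 15.2 and 7.63 FPKM in May larvae and 17.2, 16.8 and 14.3 FPKM in May adults. TRINITY_DN22520_c0_g3, from the same component, was at 18.7, 33.2 and 11.3 FPKM and at 9.45, 25.4 and 7.84 FPKM in January, against 0, 0.19 and 0 FPKM and 0.81, 0.13 and 0.70 FPKM in May. In each the second insect of a January group was the highest. TRINITY_DN23160_c1_g5, an unnamed *D. ponderosae* match with a cytochrome P450 domain, the domain of a large family of monooxygenases, was at 12.5, 16.2 and 73.7 FPKM and at 5.93, 21.8 and 5.57 FPKM in January, against 0.10, 0 and 0 FPKM and 0.06, 0 and 0 FPKM in May.

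The remaining named members belong to signalling and protein folding. TRINITY_DN18901_c0_g1 matches FERM and PDZ domain-containing protein 4, a scaffold of mammalian synapses, and was at 7.82, 10.5 and 39.8 FPKM in January larvae and 4.76, 7.17 and 15.3 FPKM in January adults, against 0 in the May larvae and 0.45, 0 and 0.24 FPKM in the May adults. TRINITY_DN21220_c2_g1, a match of the Ras-association proteins RASSF9 and RASSF10, was at 25.0, 16.8 and 27.6 FPKM and at 4.45, 13.2 and 9.54 FPKM in January, against 0.07, 0.08 and 1.03 FPKM and 0.73, 0.92 and 0.55 FPKM in May. Its January larvae were above its January adults. TRINITY_DN26969_c0_g3 matches aryl-hydrocarbon-interacting protein-like 1, a co-chaperone, and was at 40.0, 18.0 and 27.8 FPKM and at 49.0, 37.9 and 23.1 FPKM in January, against 0.18, 0.21 and 0.83 FPKM in May larvae and 7.35, 7.35 and 6.65 FPKM in May adults.

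**Figure D3:**
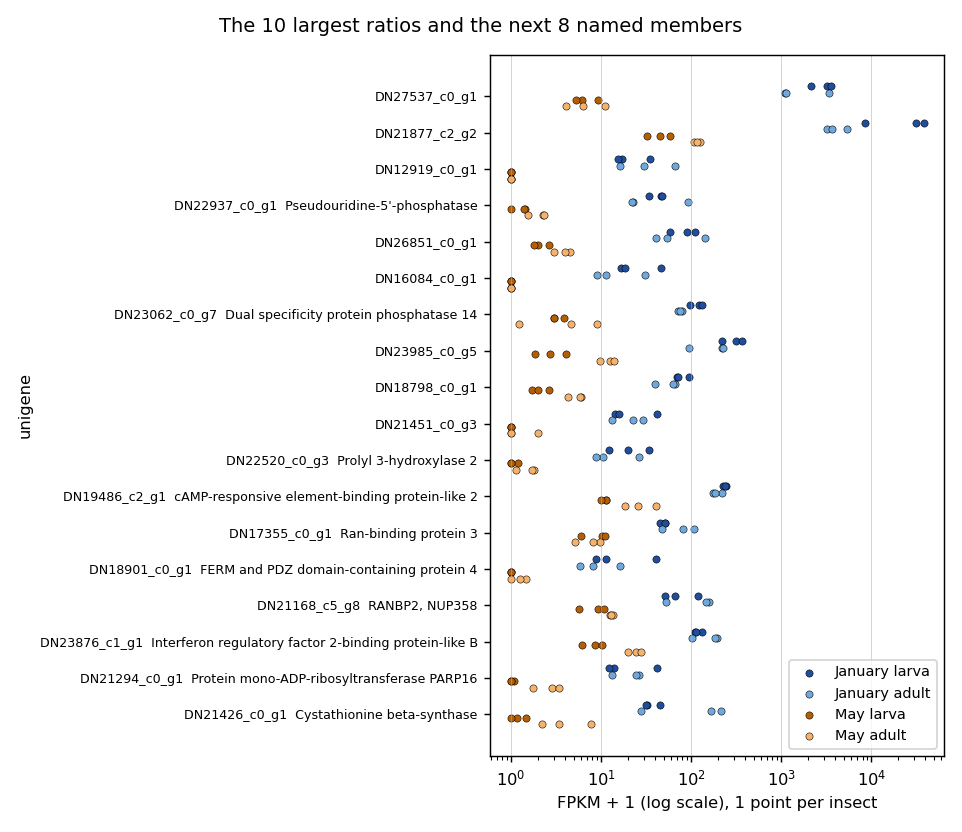
FPKM plus 1 on a log axis in each of the 12 insects for the 10 unigenes with the largest ratio and the next 8 members with a named match; each point is 1 insect, dark and light blue are January larvae and adults, and dark and light brown are May larvae and adults. In every line the January points lie to the right of the May points, from 1108 against 9.90 FPKM at the nearest pair of TRINITY_DN27537_c0_g1 to 26.6 against 6.74 FPKM in TRINITY_DN21426_c0_g1.

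Counts over the keyword lists place these members among other annotated unigenes. The lists draw on rows that were in large part selected by the study on these libraries, so the counts are no independent evidence. Of 2652 unigenes with a row, 255 had all January values above all May values and 160 had the reverse. For lola the numbers were 10 and 0 of 13 unigenes, with 1 member in the set. For zinc finger and other DNA-binding proteins they were 25 and 2 of 87, with 4 members. For basal transcription and chromatin they were 6 and 0 of 22, with 2 members. These lists overlap, since lola unigenes are also in the DNA-binding list.

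RNA processing had 11 above and 4 below of 42, with 1 member, and ubiquitin and ubiquitin-like proteins had 3 and 0 of 25, with 2 members. Phosphatases, kinases and receptors had 6 and 4 of 56, with 2 members, and oxidoreductases and lipid enzymes had 5 and 7 of 91, with 3 members. Protein targeting had 6 and 0 of 10, with 1 member, and DNA replication and repair had 2 and 0 of 7, with none. TRINITY_DN19993_c2_g2, a match of POLD3, is counted above under RNA processing as well as under DNA replication. The list of keywords linked to cold tolerance, such as heat shock proteins and enzymes of protective solutes, had 2 above and 5 below of 37, and none of its unigenes was a member. The study's own candidates for cold tolerance also took in cytochrome P450 and zinc finger proteins. Among others, it further proposed protein phosphatases and an E3 SUMO-protein ligase as possibly linked to that trait. Unigenes of these kinds fall here in other lists that hold members, so the lack of members applies to this narrower list only.

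January levels spread widely between members. The mean over the 6 January insects had a median of 34.0 FPKM and ran from 2.95 to 15100 FPKM. It was under 10 FPKM in 26 members, from 10 to 100 in 97, from 100 to 1000 in 24 and above 1000 in 3. The median over all 23533 unigenes tested in January was 6.72 FPKM. The group medians over the members were 33.8 FPKM in January larvae, 32.6 in January adults, 1.18 in May larvae and 3.94 in May adults.

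The spread between insects of a group was smaller in the members than in other unigenes, which the rule favours because 1 low January insect removes a unigene. The median coefficient of variation was 0.354 in January larvae and 0.352 in January adults, against 0.962 and 0.538 over all unigenes tested. The members also had higher January levels than all unigenes tested, and no comparison at matched level was made. The highest of the 6 January values was a median of 2.84 times the lowest, with 21 members under 2 times and 29 at 5 times or more. Over the 11705 unigenes tested and above 0 in all 6 January insects it was 5.58 times. The most even member, TRINITY_DN23635_c0_g1, was at 38.0 to 47.3 FPKM in January, at 1.24 to 3.08 FPKM in May larvae and at 12.1 to 16.7 FPKM in May adults. The least even, TRINITY_DN24753_c2_g3, was at 25.4, 46.8 and 47.9 FPKM in January larvae and 379, 322 and 52.6 FPKM in January adults. The lowest January insect was most often larva 2 (45 members), adult 1 (45) or adult 3 (33), so these 3 libraries set most of the ratios.

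Many members were listed at 0 in part of the May insects. Listed values were 0 in all 6 May insects for 6 members, in all 3 May larvae for 25 and in all 3 May adults for 6, and 98 members were above 0 in every May insect. The highest May value was under 1 FPKM in 31 members and at least 10 FPKM in 47. It belonged to an adult in 117 members. The other 33 include the 6 members at 0 in all 6 May insects, where no insect was highest, and in the rest it belonged to a larva.

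Stage was not the contrast of the rule, but the rule used the same 6 January values. It asks for all of them to be high and so limits how far the stages can differ in a member. The fit given here describes that difference, and a lack of calls among the members is no evidence that larvae and adults were alike. January larvae and January adults were compared with limma-trend on log2(FPKM + 1), with p-values adjusted by Benjamini-Hochberg over all 23533 unigenes tested and a unigene was called when its adjusted p was under 0.01 and its log2 fold change 1 or more in size. No member was called in either direction. Over all unigenes 9 were called higher in larvae (0.0382%) and 7 higher in adults (0.0297%), so calls were rare throughout. At an unadjusted p under 0.05, limma had 3 members (2%) against 5723 of all unigenes (24.3%).

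The fitted differences were centred near 0. The median larva minus adult log2 fold change was 0.08 over the members, 79 positive and 71 negative, against -0.75 over all unigenes tested, and 138 members lay within 1 on the log2 scale. All 3 larvae were above all 3 adults in 14 members (9.33%), against 6.32% of the unigenes tested, and all 3 adults above all 3 larvae in 3 (2%), against 9.2%. The stages overlapped in 133. Members had to be high in all 6 January insects and the other unigenes tested did not, so these contrasts with all unigenes also reflect the selection. The member with the largest positive difference was the abundant TRINITY_DN21877_c2_g2, with a log2 fold change of 2.45 (standard error 0.56, adjusted p = 0.152 by limma). Without January larva 3, the lowest larva for this unigene, it was 3.13 (standard error 0.42, adjusted p = 0.000126), and it was then the 1 member called, in a fit that called 237 of 21378 unigenes (1.11%) higher in larvae and 8378 (39.2%) higher in adults. The least even member, TRINITY_DN24753_c2_g3, had the largest negative difference at -2.24 (standard error 0.78, adjusted p = 0.205). The third at an unadjusted p under 0.05 was TRINITY_DN26905_c0_g2, unannotated, at 155, 77.3 and 92.5 FPKM in January larvae against 26.7, 52.3 and 48.9 FPKM in January adults, a log2 fold change of 1.32 (standard error 0.54, adjusted p = 0.205).

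In May the stages lay apart more often, in values that the rule used and that are therefore given without a test. All 3 May adults were above all 3 May larvae in 71 members (47.3%) and the reverse held in 2 (1.33%), while 77 overlapped. Over the 44805 unigenes above 0 in a May insect the shares were 28.3% and 3.83%. This order depended on scaling. With median-of-ratios scaling 39 members had the adults above and 31 the larvae above, against 21.5% and 7.67% of all unigenes, and with an equal FPKM sum per library the numbers were 93 and 1, against 31.6% and 2.24% of all unigenes. The log2 ratio of January to May, taken on group means plus 1, was larger in larvae for 120 members and in adults for 30, with medians of 3.53 and 2.61. The difference between the stages in this ratio was not tested. It is taken against the May larvae, of which larvae 2 and 3 had the fewest unigenes of all libraries, 8291 and 8428 at 1 FPKM or more.

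**Figure D4:**
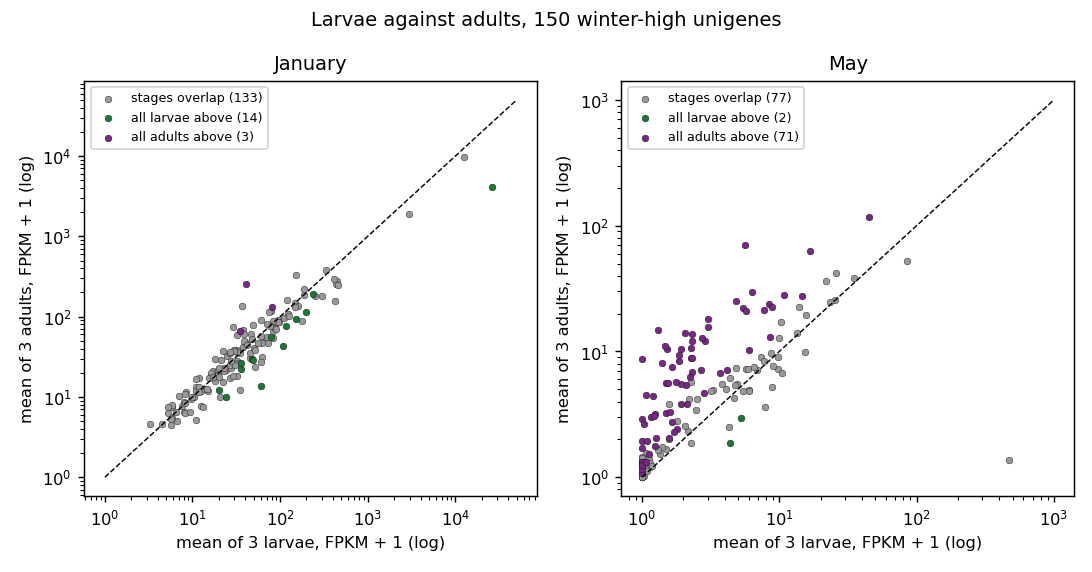
Mean FPKM plus 1 of 3 adults against that of 3 larvae for the 150 members, on log axes, in January on the left and in May on the right; colours mark members whose 3 larvae and 3 adults do not overlap, and the dashed line marks equality. In January 133 members overlap around the line, and in May 71 lie above it with all adults above all larvae, with FPKM as deposited.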

How the data were processed

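Poly(A) RNA of 12 single whole insects was sequenced in 4 groups of 3. Per the study's methods, the authors trimmed the reads and assembled them without a genome with Trinity. They placed the reads with Bowtie2 2.3.5.1 and estimated abundance with RSEM 1.2.31 per the labels. The deposited values are FPKM by the authors, with no scaling between libraries stated. FPKM carry no read numbers, so depth and counting error are unknown and precision comes from the 3 insects of a group.

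The members, keyword lists and tests were chosen with earlier results of these data known. Values in every insect are given for the 10 largest ratios, members with a named match, the 5 highest January means, list members and members with a sequence. A few further unigenes at the ends of a range were chosen after their values were seen. January stages were compared with limma 3.58.1 in R 4.3.3 on log2(FPKM + 1), for unigenes at 1 FPKM or more in at least 3 of 6 libraries. The 1 added pulls changes of low unigenes toward 0. The fit was also run on simulated data with large shifts, which checks the sign of the fitted difference and not its power in these data. Python 3.11.15 with pandas 2.3.3 was used for the rest. The alternatives were other added values, filters and scalings, a replicate block, a fit of all 12 libraries and leaving out each library.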

Additional observations from a re-analysis of the deposited data

How the results depend on the processing

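With FPKM as deposited 150 members were taken. Of these, 102 stayed among the 150 largest ratios with median-of-ratios scaling, 101 with that scaling over *D. ponderosae* matches, 120 with an equal FPKM sum and 119 when that sum left aside the 20 most abundant. In all 4 scalings 79 stayed and 139 kept all January values above all May values, and the first 10 in rank stayed in each. With either median-of-ratios scaling the abundant TRINITY_DN20328_c0_g1 left the 150 largest ratios but kept the gap. So did TRINITY_DN17355_c0_g1, TRINITY_DN20245_c0_g1, TRINITY_DN23991_c0_g1, TRINITY_DN22520_c0_g1 and TRINITY_DN21220_c2_g1, among others. TRINITY_DN24688_c4_g3 and TRINITY_DN24753_c2_g3 left and also lost the gap. With 0.1 in place of 1 added 81 stayed, and with 10 added 99. Leaving out 1 library kept 103 to 145. All unigenes with such a gap numbered 1386, and 766 with the equal sum that left aside the 20 most abundant. With 1 library left out they numbered 1431 to 1827. That count can only stay or rise when a library is removed, so it is no check of stability.

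The counts of members with May adults above May larvae and the reverse, 71 and 2, were 39 and 31 with median-of-ratios scaling and 39 and 29 with that over *D. ponderosae* matches. The reverse count was 1 with either of the equal FPKM sums. With 1 May library left out the counts ran from 73 to 83 and from 2 to 9, the 9 without May larva 1. These rescalings, and a run lacking both January larva 3 and May larva 1 that kept 129 members, were chosen after seeing the data.

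No member was called between January stages with any alternative except without January larva 3, where 1 was called higher in larvae (range 0 to 1 with 1 library left out, 0 in the other direction). That run called 237 and 8378 of all unigenes against 9 and 7, and the fit of all 12 libraries 139 and 120. Replicate numbers did not pair the January insects, since same-numbered larvae and adults correlated at -0.23, 0.13 and -0.16 in their deviations. The replicate block gave 0 members called and 8 and 4 of all unigenes. The small number of insects and the unknown read depth limit the stage test.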
